A study of Mus musculus with 12 samples.

Results

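The 34 chemokine ligand genes described here were the rows of a deposited mouse colon expression table that carry the symbol of a listed CC, CXC, CX3C or XC ligand, and they make up 34 of its 55335 rows. Colon RNA had been sequenced from 12 wild-type (WT) mice, all with colitis, 3 to a group. The agent was either TNBS (trinitrobenzene sulfonic acid, a hapten) or DSS (dextran sulfate sodium, a polymer toxic to the epithelium). Within each model the mice had received normal saline or thymopentin, a synthetic pentapeptide modelled on a thymic protein, which gives 4 groups named by model and treatment (TNBS saline and so on). No library of a colon without colitis was among the samples, so every level below is a level during colitis. The sources used here do not give strain, sex, age, dose or timing. Values are FPKM, fragments normalised for gene length and sequencing depth, which allows levels to be compared between genes per unit of length.

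Chemokines are small secreted proteins that bind G protein-coupled receptors on leukocytes and set where those cells move. Inflammatory chemokines are induced in epithelium, stroma and macrophages by cytokines such as TNF, IL-1 and interferon gamma and draw in neutrophils, monocytes and effector T cells. Homeostatic chemokines are made steadily by stromal, endothelial or epithelial cells, and in the colon they place lymphocytes in lymphoid follicles and plasma cells below the epithelium. Many of the genes lie in clusters: in RefSeq on GRCm38.p6, Ccl2, Ccl7, Ccl11, Ccl12 and Ccl8 are neighbours on chromosome 11, as are Ccl5, Ccl9, Ccl6, Ccl3 and Ccl4. Cxcl5, Ppbp, Pf4, Cxcl3, Cxcl15, Cxcl1 and Cxcl2 form a cluster on chromosome 5, where Cxcl9, Cxcl10 and Cxcl11 form another, and Ccl22, Cx3cl1 and Ccl17 lie together on chromosome 8.

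The stretches before the start sites of 4 ligands from both chromosome 5 clusters are shown, because the neighbours Cxcl9 and Cxcl10 had the largest negative differences in TNBS colitis, and because the Cxcl1 stretch can be read beside that of its close relative Cxcl2. They are the 250 bases up to the RefSeq start on GRCm38.p6, a later build than the mm9 named by the submitters, printed 5′ to 3′ on the gene's strand. Capitals mark matches to 3 motifs searched on both strands: GAS (TTCNNNGAA, the interferon gamma-activated sequence), the ISRE core (GAAANNGAAA, bound by interferon regulatory factors) and the NF-kB consensus. Cxcl9 is at chr5:92328080-92328329 and Cxcl10 at chr5:92348890-92349139, both on the minus strand; Cxcl1 is at chr5:90890995-90891244 and Cxcl2 at chr5:90903649-90903898, both on the plus strand.
Cxcl9: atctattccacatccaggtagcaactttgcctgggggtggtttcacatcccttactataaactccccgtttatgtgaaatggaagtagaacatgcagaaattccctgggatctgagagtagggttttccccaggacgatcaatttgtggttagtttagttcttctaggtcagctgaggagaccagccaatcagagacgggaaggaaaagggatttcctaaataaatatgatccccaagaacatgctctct
Cxcl10: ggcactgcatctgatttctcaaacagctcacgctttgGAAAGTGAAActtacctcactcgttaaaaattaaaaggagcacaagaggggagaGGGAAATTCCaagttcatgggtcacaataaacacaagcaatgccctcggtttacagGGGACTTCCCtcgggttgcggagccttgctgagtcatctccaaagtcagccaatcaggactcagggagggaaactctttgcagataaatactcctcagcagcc
Cxcl1: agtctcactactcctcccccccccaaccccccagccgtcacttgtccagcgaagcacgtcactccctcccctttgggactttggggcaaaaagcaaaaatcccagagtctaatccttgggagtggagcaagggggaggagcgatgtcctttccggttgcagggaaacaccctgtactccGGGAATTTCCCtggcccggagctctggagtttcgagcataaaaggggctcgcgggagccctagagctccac
Cxcl2: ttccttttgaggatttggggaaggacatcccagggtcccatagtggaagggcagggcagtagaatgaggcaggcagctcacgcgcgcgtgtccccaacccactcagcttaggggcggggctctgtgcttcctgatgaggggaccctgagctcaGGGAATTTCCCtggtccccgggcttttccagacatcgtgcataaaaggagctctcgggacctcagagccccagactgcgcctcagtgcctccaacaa
Cxcl10 held 1 ISRE core match, GAAAGTGAAA, 204 to 213 bases before the start, and 2 NF-kB matches that do not overlap it, GGGAAATTCC at 150 to 159 and GGGACTTCCC at 94 to 103 bases. Cxcl1 and Cxcl2 shared the NF-kB match GGGAATTTCC, 62 to 71 and 88 to 97 bases before their starts, and in each an NF-kB match on the other strand overlapped it, shifted by 1 base. Cxcl9 held none of the 3 motifs in this window. RefSeq gave a window for 25 of the 34 ligands; the other ligands were Cxcl5, Ccl2, Ccl7, Ccl5, Ccl4, Ccl11, Ccl24, Cxcl11 and Cxcl16. An NF-kB match was found in 6 of the 25 (Ccl9, Ccl20, Cxcl1, Cxcl2, Cxcl3, Cxcl10), against 3.9% of all 32851 windows of the same length. The ISRE core was found in 3 (Ccl19, Cxcl10, Cxcl14) against 2.98%, and GAS in 2 (Ccl17, Cxcl14) against 7.02%. Ligands were counted per gene (Ccl25 had 2 windows) and the shares per window. For Cxcl3, Ccl3 and Cxcl13 the end of the window matched no transcript of the gene in the GENCODE annotation, so their start is less certain. A match is a description of the letters and not evidence of binding.

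Each gene was tested on log2(FPKM + 1) with limma, and "called" below means a Benjamini-Hochberg adjusted p under 0.05 over all 13794 genes with a mean of at least 1 FPKM. For genes with low FPKM the pseudocount makes differences smaller than on a ratio scale. Of the 34 ligands 27 reached that mean; Ccl17, Ccl24, Cxcl2, Cxcl3, Cxcl11, Cxcl15 and Ppbp did not. Of the 27, 6 had a mean under 1 FPKM in TNBS saline and 1 in DSS saline, so some entered the test through the DSS libraries alone. Summed FPKM per library ranged from 384431 to 532510 over all genes, and the epithelial markers (Epcam, Cdh1, Krt8, Krt19, Krt20, Vil1) summed to between 3604 and 5500 FPKM. TNBS saline 3 and TNBS thymopentin 3 stood apart in lymphoid genes: 5 B cell markers summed to 1.55 and 1.92 FPKM there, against 36.8 to 94.4 in the other TNBS libraries, and values that touch this are given with the lymphoid chemokines. In bulk tissue, fewer cells of a type and less RNA per cell cannot be told apart.

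The ligands together summed to 208 to 393 FPKM per library with TNBS saline, 303 to 338 with TNBS thymopentin, 661 to 722 with DSS saline and 449 to 467 with DSS thymopentin. Ccl21a, the most abundant ligand in DSS, was part of the gap between the DSS groups: without it the sums were 460 to 472 with DSS saline and 355 to 358 with DSS thymopentin. The DSS groups did not overlap in either sum, and the TNBS groups overlapped in both.

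With thymopentin in TNBS colitis 1 of the 27 tested ligands, Cxcl9, was called lower and none was called higher, where 0.667% of all tested genes were called, 0.384% lower and 0.283% higher. At an unadjusted limma p under 0.05 there were 12, 8 lower and 4 higher, beside 1748 of all 13794 tested genes. The libraries of the groups did not overlap for 10 of the 27: Cxcl9, Cxcl10, Cxcl16, Ccl3, Ccl4, Ccl9 and Xcl1 lay lower, against 6.75% of all tested genes, and Ccl11, Ccl12 and Ccl28 lay higher, against 12.1%. The median difference of the ligands was -0.01 beside 0.03 over all tested genes. In DSS colitis 6 of the 27 were called, where 17.0% of all tested genes were called. The 5 that fell were Ccl22, Ccl7, Cxcl1, Ccl2 and Cxcl5, against 4.3% of all genes called lower, and Ccl28 rose, against 12.7% called higher. Groups did not overlap for 11 lower ligands (11.5% of all tested genes) and 2 higher (28.3%), and the median was -0.45 beside 0.12. Rescaling moved the DSS median of all genes by -0.11 (median-ratio) and -0.10 (quantile), and calls over all genes that were higher went from 74.7% to 49.8% and 52.5%; no ligand changed sign in DSS under either.

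**Figure D1:**
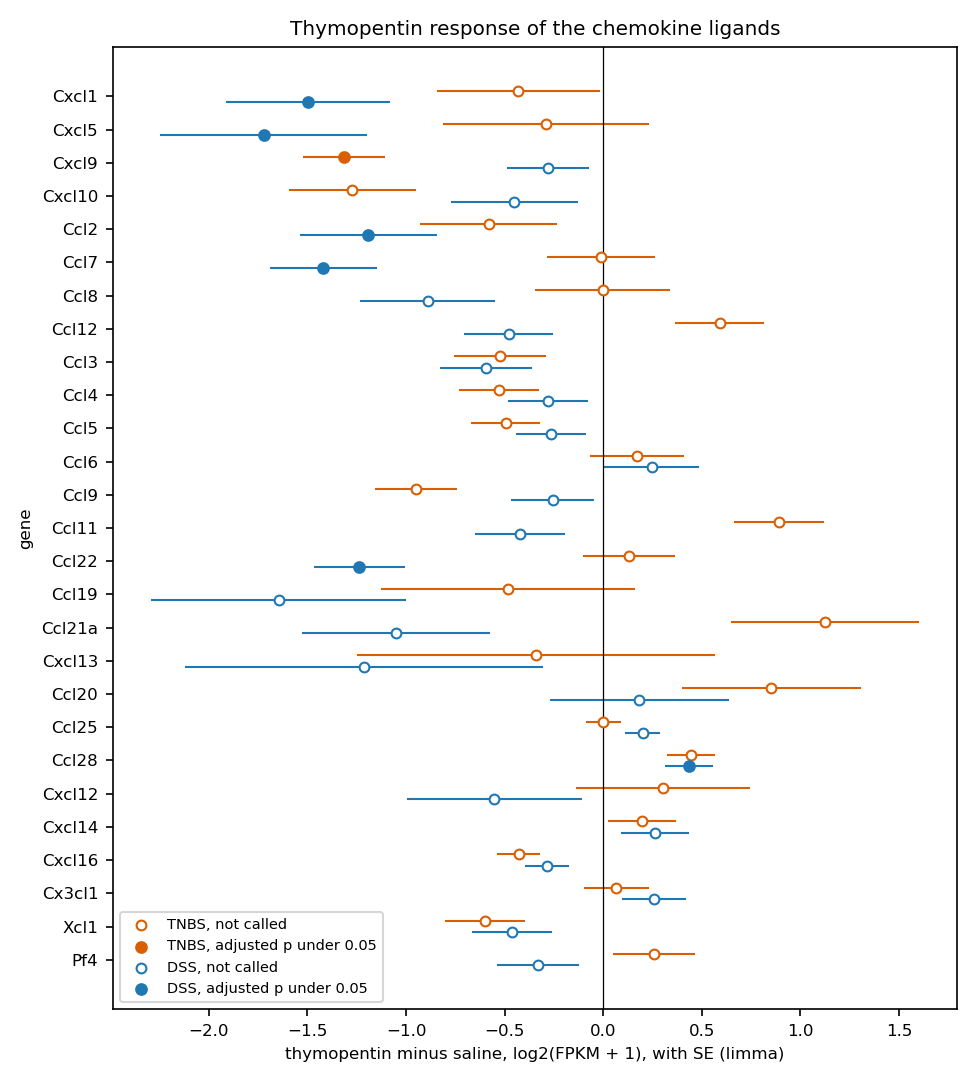
Thymopentin minus saline in log2(FPKM + 1) for the 27 tested ligands, in TNBS (orange) and DSS (blue) colitis, with the limma standard error as bars; filled points have an adjusted p under 0.05. Cxcl9 is the filled TNBS point at -1.32, and Cxcl5 at -1.72 has the lowest DSS value.

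Averaged over both models, 7 ligands were called, where 8.66% of all tested genes were: Cxcl9, Cxcl10, Cxcl16, Ccl9, Ccl7 and Xcl1 fell, against 1.94% of all genes called lower, and Ccl28 rose, against 6.71%. Of all genes called in the average 77.55% were higher, and 46.39% after median-ratio rescaling or 55.85% after quantile normalization. The thymopentin response differed between the models for 2 ligands, Ccl22 and Ccl11, both more negative in DSS, where 5.15% of all tested genes had a called difference, 2.42% negative and 2.73% positive (52.96% of those calls positive, 41.47% and 41.06% under the same rescalings). Between the models under saline 19 ligands were called, where 46.6% of all tested genes were. Of these, 16 were higher in DSS, against 15.2% of all tested genes, and 3 (Ccl28, Ccl25 and Ccl6) were lower, against 31.5% (32.5% of all calls were higher, 44.76% and 43.01% under the rescalings). Groups that did not overlap were also 16 higher and 3 lower, against 18.8% and 37.7% of all tested genes, but not for the same genes: Ccl2 and Cxcl10 were called with overlap, and Ccl19 and Cxcl13 lay apart without a call. Both counts of 16 include Ccl3, Ccl4, Ccl7, Ccl11, Ccl12 and Ccl22, the 6 tested ligands with a mean under 1 FPKM in TNBS saline. These 6 reached the filter through groups in which they were higher, so both counts rest partly on the filter. Over the tested ligands the median was 1.40, beside -0.14 over all tested genes. The comparisons share libraries, DSS saline being the control of one and the test group of another, so they do not support each other.

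Smooth muscle markers moved with the same groups. Acta2, Cnn1, Des, Myh11 and Tagln summed to 543 to 1659 FPKM with TNBS saline, 1150 to 1669 with TNBS thymopentin, 2294 to 2642 with DSS saline and 943 to 1420 with DSS thymopentin. In DSS all 5 lay lower with thymopentin without overlap, as did 11.5% of all tested genes. Cnn1, Des and Tagln were called lower (-1.38 ± 0.42, -1.22 ± 0.36 and -1.08 ± 0.29, limma adjusted p = 0.0466, 0.0443 and 0.0325), where 4.3% of all tested genes were. These calls ended with quantile normalization, with no filter and without DSS saline 1, DSS saline 3 or any 1 DSS thymopentin library (up to 0.148, 0.145 and 0.111). Cnn1 and Des also lost theirs at the filter of 0.1 FPKM and without TNBS saline 1, TNBS thymopentin 1, TNBS thymopentin 2 or DSS saline 2, and Cnn1 without TNBS thymopentin 3. All 5 were called higher in DSS saline than in TNBS saline (median 1.25), where 15.2% of all tested genes were. Cnn1, Des and Myh11 lost that call with quantile normalization, and Des also without DSS saline 1. Cnn1 and Myh11 lost it too with no filter and when only the saline groups were fitted. Without TNBS saline 1, TNBS saline 2 or any 1 DSS saline library both calls ended as well (limma adjusted p up to 0.1095 and 0.114). The part of muscle in the ligand values was not tested.

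**Figure D2:**
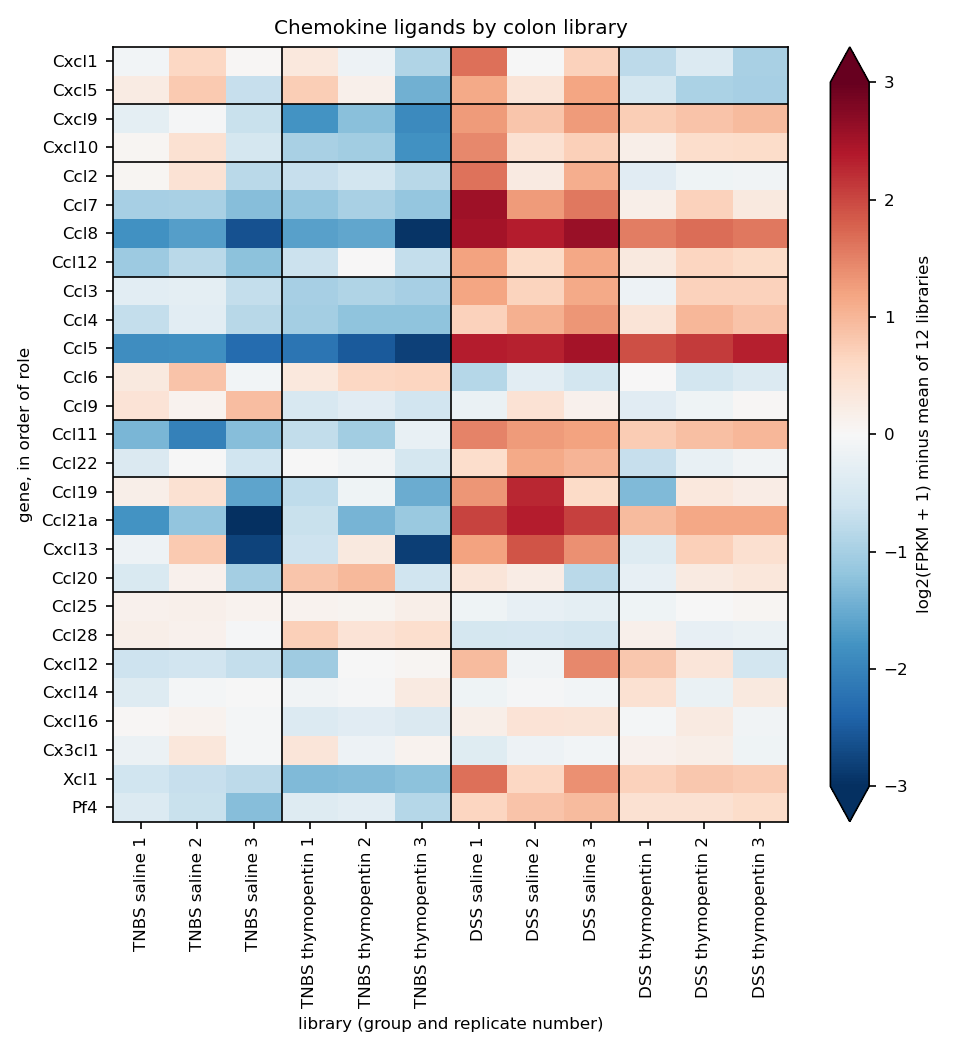
Each row is 1 of the 27 tested ligands and each column 1 library; colour gives log2(FPKM + 1) minus the mean of the 12 libraries, in groups of role. Ccl5, Ccl8 and Ccl21a separate the models most, and Cxcl13 and Ccl19 are low in TNBS saline 3 and TNBS thymopentin 3.

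Cxcl9, Cxcl10 and Cxcl11 are the interferon-inducible ligands of Cxcr3, a receptor of effector T cells and natural killer cells. Cxcl9 was 3.23, 4.07 and 2.22 FPKM in the TNBS saline libraries and 0.496, 1.18 and 0.375 with thymopentin. It was 11.5, 8.25 and 11.5 with DSS saline and 7.55, 8.37 and 8.99 with DSS thymopentin. All 3 TNBS thymopentin libraries lay below the lowest TNBS saline library, and the DSS groups overlapped. The fall in TNBS was 1.32 ± 0.21 on the log2 scale (SE, limma adjusted p = 0.0212), a mean 4.64 times lower, and the DSS difference of -0.28 ± 0.21 did not pass (adjusted p = 0.370). The difference between these responses was 1.03 ± 0.29 with an adjusted p of 0.0702 by limma, so the responses were not shown to differ. In the authors' deposited table, whose per-library values turned back into whole reads, Cxcl9 rested on 420, 455 and 301 reads against 64, 140 and 47, with a deposited FDR of 4.69e-06. The limma call ended without TNBS saline 1, TNBS thymopentin 1 or TNBS thymopentin 3 (adjusted p up to 0.0875), without a filter and when only the TNBS groups were fitted, and ranged over all alternatives from 0.000402 to 0.158. The average over models fell by 0.80 ± 0.15 (adjusted p = 0.0119) and was called under every alternative that was run for it (highest 0.0379).

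Cxcl10 was 4.24, 5.97 and 2.498 FPKM with TNBS saline and 1.57, 1.46 and 0.438 with TNBS thymopentin. In DSS it was 12.9, 5.92 and 7.30 with saline and 4.74, 6.26 and 6.48 with thymopentin. The TNBS groups did not overlap and the DSS groups did. The TNBS difference was -1.27 ± 0.32 (limma adjusted p = 0.117), nearly the size of that of Cxcl9 with a larger error, and it was not called. The authors' deposited table gave it an FDR of 0.00251 on 412, 499 and 254 reads against 148, 132 and 41. Averaged over the models Cxcl10 fell by 0.86 ± 0.23 (limma adjusted p = 0.0439). Leaving out any library except TNBS saline 3 or DSS saline 2 ended that call (up to 0.1003). Cxcl11 lay under the filter, between 0.0248 and 1.13 FPKM, with the highest group mean in DSS saline (0.785 ± 0.336, SD, n = 3) and the lowest in TNBS thymopentin (0.115 ± 0.120). In the fit at a mean of at least 0.1 FPKM, Cxcl11 was higher in DSS saline than in TNBS saline by 0.49 ± 0.14 (limma adjusted p = 0.0153), and its thymopentin differences did not pass. The receptor Cxcr3 was 0.443 ± 0.219 FPKM with TNBS saline, 0.256 ± 0.0403 with TNBS thymopentin, 3.25 ± 0.397 with DSS saline and 2.60 ± 0.177 with DSS thymopentin. Cxcr3 was called in no thymopentin comparison and was higher in DSS saline than in TNBS saline (1.56 ± 0.12, limma adjusted p = 2.89e-05). Cxcl9 (1.46 ± 0.21) and Cxcl10 were also higher there (for Cxcl10 0.88 ± 0.32, adjusted p = 0.0444, lost without any 1 library except TNBS saline 2, TNBS thymopentin 3 or DSS saline 2, up to 0.166). The 8 T cell markers summed to 5.78 to 20.1 FPKM with TNBS saline and 2.55 to 11.2 with TNBS thymopentin, and all 8 had a negative difference without a call; their part in the result was not tested.

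**Figure D3:**
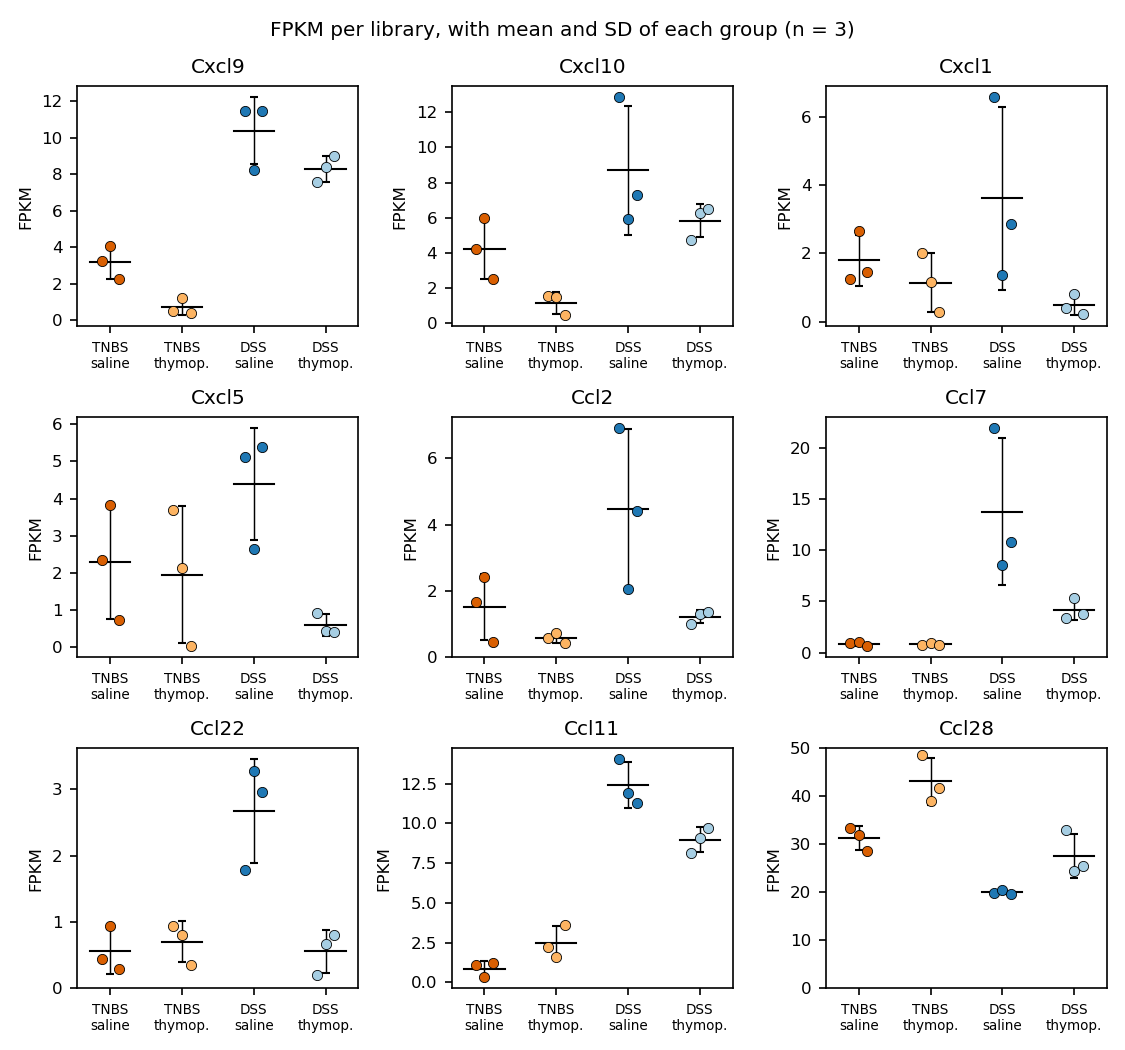
FPKM of 9 ligands in each library (points), with the group mean (line) and SD (bars, n = 3) for the TNBS groups (orange) and DSS groups (blue). Cxcl9 and Cxcl10 separate within TNBS, Ccl7 and Ccl22 within DSS, and Ccl28 is higher with thymopentin in both models.

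Cxcl1, Cxcl2, Cxcl3, Cxcl5, Cxcl15 and the Ppbp product act on Cxcr2, the receptor through which neutrophils enter inflamed tissue. Cxcl1 was 6.59, 1.38 and 2.86 FPKM with DSS saline and 0.397, 0.804 and 0.228 with DSS thymopentin. In TNBS it was 1.26, 2.66 and 1.46 with saline and 2.004, 1.15 and 0.284 with thymopentin. The DSS groups did not overlap, although DSS saline 2 stood nearer to the thymopentin libraries than to DSS saline 1, and the TNBS groups overlapped. In DSS Cxcl1 fell by 1.498 ± 0.41 (limma adjusted p = 0.0347), and the call ended without DSS saline 1, DSS saline 3 or any 1 DSS thymopentin library (up to 0.0958). With no filter and when only the DSS groups were fitted, the Cxcl1 call ended too. Cxcl5 was 5.13, 2.66 and 5.39 FPKM with DSS saline and 0.934, 0.451 and 0.419 with DSS thymopentin, and the groups lay apart. In TNBS it spread widely within each group, from 0.735 to 3.82 with saline and from 0.0283 to 3.71 with thymopentin. Cxcl5 fell in DSS by 1.72 ± 0.52 (limma adjusted p = 0.0469), a call lost on omitting TNBS saline 1, TNBS thymopentin 2, DSS saline 1, DSS saline 3 or a DSS thymopentin library (up to 0.134). A pseudocount of 0.1, a mean of at least 0.1 FPKM and no filter each ended the Cxcl5 call as well. The test of the difference between models passed for neither gene (adjusted p = 0.322 for Cxcl1 and 0.293 for Cxcl5, limma).

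Cxcl2, a relative of Cxcl1, had its highest levels in TNBS saline: 2.56, 1.82 and 0.943 FPKM, against 0.846, 1.06 and 0.0528 with TNBS thymopentin. The DSS values were 0.594, 0.309 and 0.831 with saline against 0.0152, 0.241 and 0.0400 with thymopentin, without overlap. With a mean of 0.776 over all libraries it was tested only at the lower filter, where neither thymopentin difference passed (-0.76 ± 0.27 in TNBS and -0.52 ± 0.27 in DSS, limma adjusted p = 0.294 and 0.235). Cxcl2 was lower in DSS saline than in TNBS saline there (-0.78 ± 0.27, adjusted p = 0.0407), while Cxcl1 and Cxcl5 had positive differences that did not pass (0.59 ± 0.41 and 0.79 ± 0.52). The authors' deposited table lists Cxcl2 as lower in both models, with an FDR of 0.00221 in DSS on 53, 26 and 68 reads against 2, 17 and 4, and an FDR of 0.442 in TNBS. Cxcl3 reached at most 0.260 FPKM, in TNBS saline 2, and Cxcl15 was listed at 0 in every library. Ppbp, the precursor of platelet basic protein, lay between 0 and 0.313 FPKM, highest in DSS saline. The receptors of these ligands were at or near 0: Cxcr2 had a mean of 0.0312 FPKM over the libraries and Cxcr1 of 0.00568. Of the other neutrophil markers S100a8 and S100a9, which encode calprotectin, passed the filter, and both were called lower with thymopentin in DSS (-1.66 ± 0.31 and -2.06 ± 0.37, limma adjusted p = 0.00766 and 0.00689). The 6 neutrophil markers summed to 1.87 to 8.77 FPKM with TNBS saline, 0.236 to 1.003 with TNBS thymopentin, 5.08 to 9.55 with DSS saline and 0.650 to 1.26 with DSS thymopentin. Neither saline group overlapped its thymopentin group in that sum, and its part in the ligand values was not tested.

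Ccl2, Ccl7, Ccl8 and Ccl12 are monocyte chemoattractants. Ccl2, Ccl7 and Ccl12 bind Ccr2, the receptor that brings monocytes out of bone marrow and blood, and mouse Ccl8 is known as a ligand of Ccr8. In DSS colitis Ccl7 was 21.9, 8.56 and 10.8 FPKM with saline and 3.42, 5.33 and 3.82 with thymopentin. In TNBS it was 0.614 to 1.01 with saline and 0.758 to 0.990 with thymopentin. The DSS groups lay apart with DSS saline 1 the highest, and the TNBS groups overlapped near 1 FPKM. Ccl7 fell in DSS by 1.42 ± 0.27 (limma adjusted p = 0.00869), a mean 3.28 times lower, and the call held under every alternative run for it (0.00293 to 0.0411). The TNBS difference was -0.01 ± 0.27, and the difference of the responses, -1.41 ± 0.38, missed the threshold (adjusted p = 0.0630). The average over the models fell by 0.72 ± 0.19 (adjusted p = 0.0461), which was lost without any 1 library except DSS saline 1 or 2 (up to 0.106). Ccl2 was 6.92, 2.06 and 4.40 FPKM with DSS saline and 1.01, 1.32 and 1.35 with DSS thymopentin. With TNBS saline it was 1.66, 2.41 and 0.450, and with TNBS thymopentin 0.570, 0.735 and 0.442. Its DSS groups did not overlap and its TNBS groups overlapped through TNBS saline 3. Ccl2 fell in DSS by 1.19 ± 0.35 (limma adjusted p = 0.0414), and the call ended without any 1 library except TNBS saline 2, TNBS saline 3 or DSS saline 2 (up to 0.124). This call also ended at a pseudocount of 0.1, at a mean of at least 0.1 FPKM, with no filter and when only the DSS groups were fitted. Between the saline groups Ccl7 was higher in DSS by 2.89 ± 0.27 (limma adjusted p = 6.25e-05), a ratio of means of 16.0, and Ccl12 by 2.02 ± 0.23 (adjusted p = 0.000127). Ccl2 was higher by 1.10 ± 0.35 (limma adjusted p = 0.0242), a call lost without TNBS saline 3, DSS saline 1 or DSS saline 3 (up to 0.0942).

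Ccl8 had the largest log2 difference between the models of the 27 tested ligands: it was 90.2, 80.8 and 95.7 FPKM with DSS saline and 45.2, 50.1 and 46.9 with DSS thymopentin, against 1.09 to 4.47 in the 6 TNBS libraries. The saline groups differed by 4.52 ± 0.34 (limma adjusted p = 2.88e-05), a ratio of means of 28.9. Within DSS the 3 thymopentin libraries lay well below the 3 saline libraries, but the difference of -0.89 ± 0.34 was not called (limma adjusted p = 0.0957). When only the DSS groups were fitted, Ccl8 was called (adjusted p = 0.00656), and the authors' deposited table gave it an FDR of 2.82e-13. Ccl12 was 5.15, 2.99 and 5.02 FPKM with DSS saline and 2.28, 3.18 and 2.98 with DSS thymopentin, which overlapped. In TNBS it lay at 0.264, 0.533 and 0.134 with saline and 0.711, 1.69 and 0.631 with thymopentin, without overlap and in the opposite direction. Neither response passed (0.59 ± 0.23 in TNBS and -0.48 ± 0.23 in DSS, limma adjusted p = 0.309 and 0.165), nor did their difference (-1.07 ± 0.32, adjusted p = 0.0827). The TNBS values of Ccl12 rested on 7, 11 and 4 reads against 16, 36 and 14, per the authors' deposited table. Ccr2 itself fell with thymopentin in DSS, from 2.80 ± 0.308 to 1.58 ± 0.375 FPKM (SD, n = 3; -0.57 ± 0.17, limma adjusted p = 0.0479). The Ccr2 call ended without any 1 library except TNBS saline 2, TNBS saline 3 or TNBS thymopentin 3 (up to 0.131). It also ended at a pseudocount of 0.1, at a mean of at least 0.1 FPKM and with no filter. Ccr8 had a mean of 0.0643 FPKM. Of 8 tested macrophage and monocyte markers, Fcgr1 and Mrc1 fell in DSS (-0.72 ± 0.15 and -0.36 ± 0.10, limma adjusted p = 0.0120 and 0.0399). The Fcgr1 call ended without DSS saline 3 (0.0525) and at a pseudocount of 0.1. That of Mrc1 ended without TNBS saline 1, TNBS thymopentin 2, DSS saline 2, DSS saline 3 or any 1 DSS thymopentin library (up to 0.138), at a pseudocount of 0.1, at both lower filters and when only the DSS groups were fitted. Their list (Itgam with 2 rows) summed to 70.5 to 77.6 FPKM with DSS saline, 54.3 to 56.7 with DSS thymopentin and 24.3 to 46.8 in TNBS, so the sum moved with the ligands; its part was not tested.

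Ccl3, a ligand of Ccr1, and Ccl4, its close relative, are made by macrophages and activated lymphocytes. Ccl3 was 0.596, 0.634 and 0.217 FPKM with TNBS saline and 0, 0.0730 and 0 with TNBS thymopentin. In DSS it was 3.55, 2.18 and 3.42 with saline and 0.787, 2.23 and 2.22 with thymopentin. Ccl4 was 0.419, 0.866 and 0.295 FPKM with TNBS saline and 0.141, 0 and 0 with thymopentin, and in DSS 2.74, 3.82 and 4.76 against 2.03, 3.59 and 3.16. For both genes the TNBS groups lay apart and the DSS groups overlapped. None of these thymopentin differences was called, and on the log2(FPKM + 1) scale the TNBS differences were -0.52 ± 0.23 and -0.53 ± 0.20 (limma adjusted p = 0.390 and 0.309). The reads are few: per the authors' deposited table, Ccl3 had 20, 18 and 8 against 0, 3 and 0 (FDR 0.0332), and Ccl4 had 12, 22 and 9 against 4, 0 and 0 (FDR 0.0864). Between the saline groups Ccl3 was higher in DSS by 1.44 ± 0.23 and Ccl4 by 1.64 ± 0.20 (limma adjusted p = 0.000781 and 0.000208).

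Ccl5, made mostly by T cells and natural killer cells, was 66.2, 64.1 and 73.1 FPKM with DSS saline and 48.9, 55.7 and 65.1 with DSS thymopentin. It was 2.59, 2.70 and 1.65 with TNBS saline and 1.89, 1.31 and 0.884 with TNBS thymopentin. The groups overlapped within each model, and every DSS library exceeded every TNBS library. The saline groups differed by 4.39 ± 0.18 (limma adjusted p = 1.39e-06), a ratio of means of 29.3, and over every alternative that difference stayed between 4.24 and 4.84. Thymopentin differences were -0.49 ± 0.18 in TNBS and -0.26 ± 0.18 in DSS, neither called (adjusted p = 0.266 and 0.319). Of 8 T cell markers 7 were called higher in DSS saline than in TNBS saline, for example Cd3g (1.99 ± 0.20) and Trac (2.10 ± 0.40). Of all tested genes 15.2% were called higher there. The T cell sum was 43.9 to 67.6 FPKM in DSS saline against 5.78 to 20.1 in TNBS saline, and its part in the Ccl5 difference was not tested.

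Ccl6 and Ccl9 are ligands of Ccr1 found in rodents, and Ccl6 was lower in DSS than in TNBS. Ccl6 had the highest mean level of all ligands in the TNBS groups, at 143, 212 and 110 FPKM with saline and 145, 180 and 183 with thymopentin. The DSS values were 63.9, 93.4 and 79.2 with saline against 117, 78.3 and 86.6 with thymopentin. The saline groups lay apart, and Ccl6 was lower in DSS by 0.93 ± 0.24 (limma adjusted p = 0.00939), while the thymopentin groups overlapped the saline groups in both models. Ccl9 was 8.44, 6.68 and 12.6 FPKM with TNBS saline and 4.12, 4.56 and 3.79 with TNBS thymopentin, without overlap. In DSS it was 5.17, 8.52 and 6.69 against 4.59, 5.52 and 6.26, with overlap. The TNBS difference was -0.95 ± 0.21 (limma adjusted p = 0.0814) and not called, while the authors' deposited table gave an FDR of 4.34e-05 on 1105, 755 and 1713 reads against 522, 544 and 462. Averaged over the models Ccl9 fell by 0.60 ± 0.15 (adjusted p = 0.0349), lost without any 1 library except TNBS saline 2, TNBS saline 3 or DSS saline 1 (up to 0.0757). The receptor Ccr1 was 2.16 ± 0.536 and 1.45 ± 0.620 FPKM in TNBS without and with thymopentin, and 3.53 ± 0.722 and 2.38 ± 0.264 in DSS, with no call.

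Ccl11, or eotaxin, draws eosinophils through Ccr3 and is made by fibroblasts and macrophages. It was 1.08, 0.317 and 1.223 FPKM with TNBS saline and 2.24, 1.61 and 3.62 with TNBS thymopentin. With DSS saline it was 14.1, 11.9 and 11.3 and with DSS thymopentin 8.15, 9.07 and 9.69. The groups lay apart in both models, higher with thymopentin in TNBS and lower with thymopentin in DSS. Neither response passed alone (0.89 ± 0.23 and -0.42 ± 0.23, limma adjusted p = 0.119 and 0.217), but the difference between them did (-1.32 ± 0.32, adjusted p = 0.0447). That call was lost without any 1 library except TNBS saline 3 or TNBS thymopentin 2 (up to 0.1004), at a pseudocount of 0.1, at the lower filter or none, and with quantile normalization. The saline groups differed by 2.87 ± 0.23 (adjusted p = 3.02e-05), a ratio of means of 14.2. Ccl24, the other eotaxin in the list, reached at most 0.164 FPKM, in DSS saline 3, and the receptor Ccr3 had a mean of 0.00133 FPKM. A fibroblast marker had the same directions: Dcn, decorin, rose with thymopentin in TNBS from 10.1 ± 1.11 to 18.6 ± 1.10 FPKM (0.83 ± 0.10, limma adjusted p = 0.00674) and fell in DSS from 46.7 ± 3.89 to 32.4 ± 2.48 (-0.51 ± 0.10, adjusted p = 0.0103). With the replicate number as a block the TNBS call of Dcn ended (adjusted p = 0.0554), as it did when only the TNBS groups were fitted. The 6 fibroblast and stromal markers summed to 39.3 to 40.2 FPKM with TNBS saline, 55.0 to 69.6 with TNBS thymopentin, 95.9 to 108 with DSS saline and 70.9 to 81.6 with DSS thymopentin. The order of these 4 groups was that of Ccl11; the part of the stroma in it was not tested.

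Ccl17 and Ccl22, neighbours on chromosome 8, are ligands of Ccr4 and are made mainly by dendritic cells and macrophages. Ccl22 was 1.78, 3.27 and 2.96 FPKM with DSS saline and 0.196, 0.672 and 0.801 with DSS thymopentin. In TNBS it was 0.441, 0.942 and 0.290 with saline and 0.941, 0.806 and 0.352 with thymopentin. The DSS groups lay far apart, the TNBS groups overlapped, and DSS thymopentin overlapped both TNBS groups. Ccl22 fell in DSS by 1.24 ± 0.23 (limma adjusted p = 0.00816), a mean 4.81 times lower, under every alternative run (0.00193 to 0.0365). The mean of Ccl22 was over 1 FPKM only in DSS saline (2.67, against 0.556 to 0.700 in the other groups). It thus passed the main filter through the control group of this test, in which it is high. In TNBS the difference was 0.13 ± 0.23, and the responses differed by -1.37 ± 0.33 (adjusted p = 0.0431). The latter call was lost without any 1 library except TNBS saline 2, TNBS thymopentin 3 or DSS saline 1 (up to 0.104), at a pseudocount of 0.1 and with no filter. Ccl17 was 1.64, 1.31 and 1.72 FPKM with DSS saline and 0.332, 0.347 and 0.640 with DSS thymopentin. In TNBS it was 0.0989, 0 and 0 with saline and 0.479, 0.449 and 0.177 with thymopentin. Both pairs of groups lay apart, in opposite directions. At the filter of 0.1 FPKM, where 10.7% of genes were called in DSS, Ccl17 fell in DSS by 0.83 ± 0.12 (limma adjusted p = 0.00340), and its responses differed by -1.23 ± 0.17 (adjusted p = 0.0112, where 3.29% of genes were called). The TNBS difference of 0.40 ± 0.12 was not called (adjusted p = 0.207) and rested on 3, 0 and 0 reads against 11, 9 and 4, per the authors' deposited table. Their neighbour Cx3cl1 was 14.4 to 17.5 FPKM with DSS saline and 17.1 to 21.1 with DSS thymopentin, without a call (0.26 ± 0.16, adjusted p = 0.297). Ccr4 had a mean of 0.127 FPKM. Among dendritic cell markers H2-Ab1, an MHC class II chain, was 186 ± 10.5 FPKM with DSS saline and 99.2 ± 23.7 with DSS thymopentin, without a call. The sum of the 7 markers, 186 to 207 against 77.2 to 122 FPKM, is mostly H2-Ab1 and adds little to its values. The part of these markers was not tested.

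Ccl19 and Ccl21a guide Ccr7-bearing dendritic cells and naive T cells into lymphoid tissue, and Cxcl13, the ligand of Cxcr5, organises B cell follicles. Cxcl13 was 17.9, 35.0 and 2.07 FPKM with TNBS saline and 12.7, 24.7 and 1.94 with TNBS thymopentin. The DSS values were 47.4, 76.9 and 53.2 with saline against 15.1, 33.7 and 28.4 with thymopentin. Ccl19 was 2.35, 3.13 and 0 FPKM with TNBS saline and 0.756, 1.72 and 0.0631 with TNBS thymopentin, and in DSS 6.46, 13.2 and 3.44 against 0.188, 2.74 and 2.46. Both genes were lowest in TNBS saline 3 and TNBS thymopentin 3, and for both the DSS groups did not overlap. The DSS differences of -1.21 ± 0.91 for Cxcl13 and -1.65 ± 0.65 for Ccl19 were not called (limma adjusted p = 0.378 and 0.102). For Cxcl13 in DSS the authors' deposited table gave an FDR of 3.00e-06 on 2267, 3412 and 2349 reads against 664, 1249 and 1313, and Ccl19 an FDR of 0.163. Ccl19 has pseudogene rows in the table (Ccl19-ps1 and Ccl19-ps3, up to 2.93 and 7.31 FPKM), so its values are uncertain where reads could be shared.

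The B cell markers Ms4a1, Cd79a, Cd79b, Pax5 and Cd22 summed to 53.4, 94.4 and 1.55 FPKM with TNBS saline and 36.8, 59.3 and 1.92 with TNBS thymopentin. In DSS they summed to 43.7, 91.3 and 14.6 with saline and 13.9, 81.03 and 66.3 with thymopentin. In TNBS the order of the 3 libraries within each group was the same for the B cell sum, Cxcl13 and Ccl19. In DSS the saline libraries held more Cxcl13 than thymopentin libraries with a like B cell sum: DSS saline 3 had 53.2 FPKM at a sum of 14.6, and DSS thymopentin 1 had 15.1 at 13.9. The part of follicle content in these values was not tested. Cxcr5 followed the same libraries, with group means of 1.90 to 2.31 FPKM and SDs of 1.63 to 2.25. Ccr7 was 4.66 ± 1.72 FPKM with DSS saline and 1.56 ± 0.731 with DSS thymopentin, without overlap and without a call (-1.14 ± 0.49, limma adjusted p = 0.129).

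**Figure D4:**
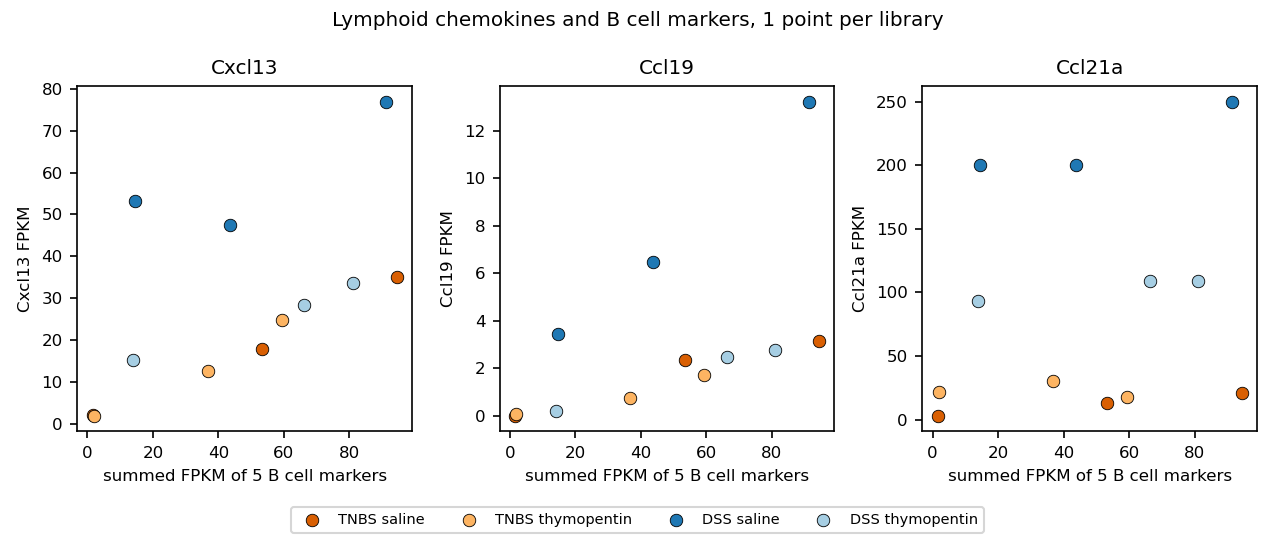
FPKM of Cxcl13, Ccl19 and Ccl21a against the summed FPKM of 5 B cell markers, 1 point per library. TNBS saline 3 and TNBS thymopentin 3 sit at the lower left for Cxcl13 and Ccl19, and the DSS saline libraries lie above the others in all 3 panels.

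Ccl21a, made by lymphatic endothelium and lymphoid stroma, had the highest mean level of all ligands in both DSS groups, at 200, 250 and 200 FPKM with saline and 93.5, 109 and 109 with thymopentin. In TNBS it was 13.2, 20.6 and 3.09 with saline and 29.9, 17.5 and 21.6 with thymopentin. The DSS groups lay apart, every DSS library exceeded every TNBS library, and the TNBS groups overlapped. The saline groups differed by 4.33 ± 0.48 (limma adjusted p = 0.000118), a ratio of means of 17.6. The thymopentin responses were 1.12 ± 0.48 in TNBS and -1.05 ± 0.48 in DSS, neither called (adjusted p = 0.355 and 0.148), and their difference of -2.17 ± 0.67 was not called either (adjusted p = 0.0894). When only the DSS groups were fitted the DSS difference was called (adjusted p = 0.00823), and the authors' deposited table gave it an FDR of 6.12e-22. A near-identical copy, Ccl21b, had a row of its own with 52.2 to 62.6 FPKM in DSS saline and 0.607 to 5.05 in TNBS, so how reads were split between the copies is uncertain. Lymphatic endothelial markers without Ccl21a (Lyve1, Prox1, Flt4, Pdpn) summed to 4.86 to 5.61 FPKM with TNBS saline, 8.70 to 10.5 with TNBS thymopentin, 22.9 to 33.98 with DSS saline and 16.3 to 24.2 with DSS thymopentin. Lyve1, a hyaluronan receptor of lymphatic vessels, was higher in DSS saline than in TNBS saline by 2.67 ± 0.27 (adjusted p = 8.56e-05, limma). The part of lymphatic content was not tested.

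Ccl20, which follicle epithelium makes for Ccr6-bearing B cells and Th17 cells, was 5.41, 8.59 and 3.38 FPKM with TNBS saline and 14.7, 16.4 and 4.79 with TNBS thymopentin. In DSS it was 10.4, 9.37 and 4.07 against 6.40, 9.62 and 10.2. All 4 groups overlapped, and no comparison was called; the TNBS difference was 0.85 ± 0.46 (limma adjusted p = 0.488). Ccr6 was under the filter, with a mean of 0.703 FPKM.

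Ccl28 and Ccl25 are the epithelial homing chemokines: Ccl28 brings Ccr10-bearing plasma cells to the colon, and Ccl25 acts through Ccr9, chiefly in small intestine and thymus. Ccl28 was 33.5, 32.0 and 28.6 FPKM with TNBS saline and 48.6, 39.0 and 41.7 with TNBS thymopentin. The DSS values were 19.9, 20.5 and 19.7 with saline against 32.9, 24.5 and 25.6 with thymopentin. Every thymopentin library exceeded every saline library of its model. In TNBS the difference was 0.44 ± 0.12 (limma adjusted p = 0.143) and in DSS it was 0.44 ± 0.12 (adjusted p = 0.0352), of like size but called only in DSS; the difference of the responses was -0.01 ± 0.17 (adjusted p = 0.988). Averaged over the models Ccl28 rose by 0.44 ± 0.09 (adjusted p = 0.0151), a call that ended with median-ratio rescaling (0.0614) and held under the other alternatives run for it. The DSS call ended under both rescalings, with no filter, when only the DSS groups were fitted and without TNBS saline 1, any 1 DSS saline library, DSS thymopentin 1 or DSS thymopentin 3 (up to 0.101; 0.0236 to 0.151 over all alternatives). Ccl28 was lower in DSS saline than in TNBS saline by 0.62 ± 0.12 (adjusted p = 0.00212). Of the 6 epithelial markers, 2 were called with thymopentin in DSS, where 17.0% of all tested genes were called: Epcam and Cdh1. Both rose (0.44 ± 0.12 and 0.39 ± 0.11, limma adjusted p = 0.0315 and 0.0310) and were lower in DSS saline than in TNBS saline (-0.54 ± 0.12 and -0.85 ± 0.11). Over all 6, 5 differences were positive and 1 negative with thymopentin in DSS. Between the saline groups 4 were negative and 2 positive, and the sums of the 6 overlapped (4484 to 5500 FPKM with TNBS saline, 4230 to 5323 with DSS saline). Both thymopentin calls ended with median-ratio rescaling, with no filter and when only the DSS groups were fitted. Leaving out DSS saline 1, DSS thymopentin 1 or DSS thymopentin 2 ended either call, and leaving out TNBS saline 1, DSS saline 2 or DSS saline 3 ended that of Cdh1 (up to 0.0892 for Epcam and 0.0914 for Cdh1). In TNBS all 6 epithelial markers had negative differences and Ccl28 a positive one. The part of epithelial content was not tested. Ccl25 was 1.41 to 1.505 FPKM with TNBS saline, 1.39 to 1.54 with TNBS thymopentin, 0.843 to 1.05 with DSS saline and 1.06 to 1.35 with DSS thymopentin. It was lower in DSS saline than in TNBS saline by 0.35 ± 0.09 (limma adjusted p = 0.00861), and its thymopentin differences of 0.00 ± 0.09 and 0.20 ± 0.09 were not called. Ccr10 had a mean of 0.999 FPKM and Ccr9 of 0.202, both under the filter.

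**Figure D5:**
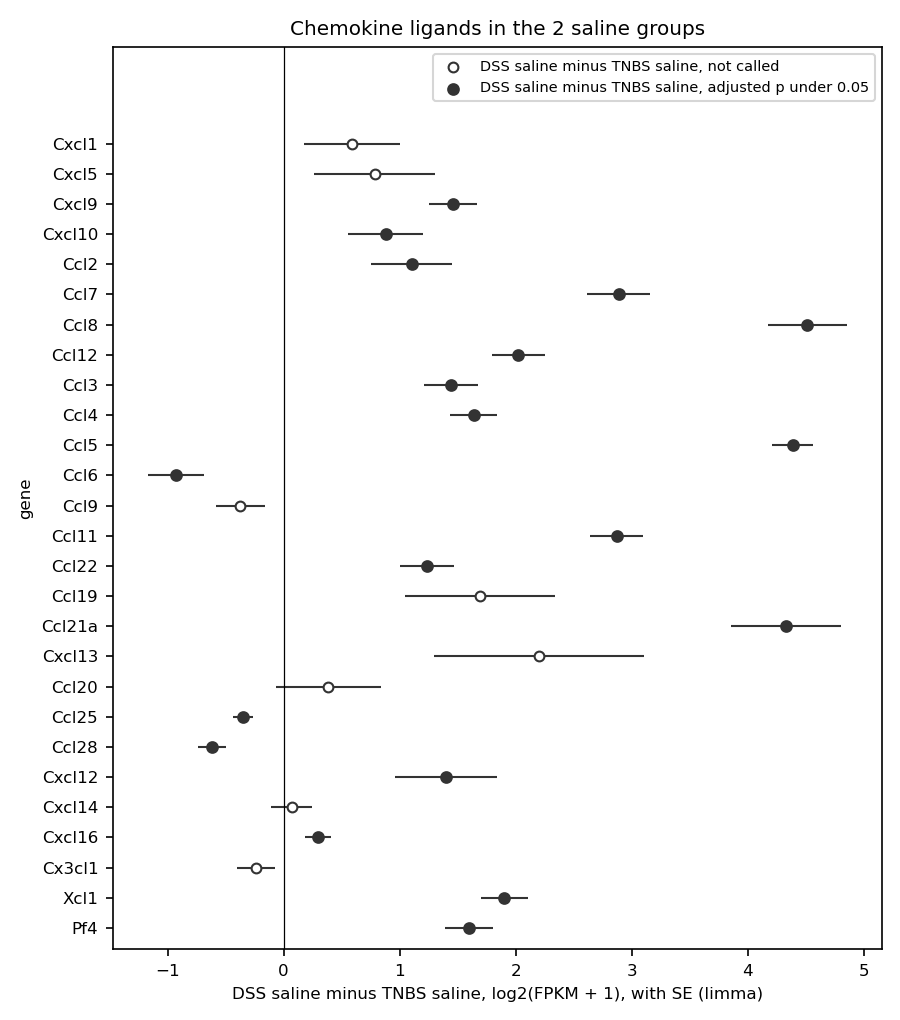
DSS saline minus TNBS saline in log2(FPKM + 1) for the 27 tested ligands, with the limma standard error as bars; filled points have an adjusted p under 0.05. Ccl8, Ccl5 and Ccl21a lie beyond 4, and Ccl6, Ccl28 and Ccl25 are the filled points below 0.

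Cxcl16 and Cx3cl1 are the transmembrane chemokines, ligands of Cxcr6 and Cx3cr1. Cxcl16 was 6.96, 7.28 and 6.42 FPKM with TNBS saline and 4.76, 5.13 and 4.67 with TNBS thymopentin, without overlap. In DSS it was 7.72, 9.31 and 9.03 against 6.41, 8.31 and 6.21, with overlap. Averaged over the models Cxcl16 fell by 0.36 ± 0.08 (limma adjusted p = 0.0232), and the call ended without TNBS saline 1, TNBS thymopentin 3, DSS saline 3 or DSS thymopentin 3 (up to 0.0630). It was higher in DSS saline than in TNBS saline by 0.29 ± 0.11 (adjusted p = 0.0492, lost without any 1 library except DSS saline 1, DSS thymopentin 2 or DSS thymopentin 3, up to 0.140). Cx3cl1, at 14.4 to 24.2 FPKM over the 12 libraries, was called in no comparison. Its receptor Cx3cr1, carried by colon macrophages, was 1.54 ± 0.367 FPKM with TNBS saline and 0.826 ± 0.135 with TNBS thymopentin, without overlap or call (-0.47 ± 0.18, limma adjusted p = 0.319).

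Xcl1, made by T cells and natural killer cells for the Xcr1 of cross-presenting dendritic cells, was 1.63, 1.46 and 1.32 FPKM with TNBS saline and 0.587, 0.614 and 0.682 with TNBS thymopentin. The DSS values were 11.4, 5.14 and 9.29 against 5.38, 5.90 and 5.78. The TNBS groups lay apart on 29 to 37 reads against 13 to 15 in the authors' deposited table (FDR 0.105), and the DSS groups overlapped through DSS saline 2. Averaged over the models Xcl1 fell by 0.53 ± 0.14 (limma adjusted p = 0.0461), which ended under both rescalings and without any 1 library except DSS saline 2 (up to 0.110). Between the saline groups it was higher in DSS by 1.90 ± 0.20 (adjusted p = 0.000104). Xcr1 was 0.867 ± 0.0968 FPKM with DSS saline and 0.441 ± 0.0987 with DSS thymopentin, under the filter.

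Cxcl12, the stromal ligand of Cxcr4, was 2.27, 2.38 and 2.05 FPKM with TNBS saline, 1.40, 4.02 and 4.28 with TNBS thymopentin, 8.72, 3.68 and 12.7 with DSS saline and 7.77, 5.505 and 2.46 with DSS thymopentin. Its groups overlapped within each model, and it was higher in DSS saline than in TNBS saline by 1.40 ± 0.44 (limma adjusted p = 0.0241, lost without TNBS saline 1 or 3 or DSS saline 1 or 3, up to 0.0929). Cxcr4 was 3.66 ± 1.95 FPKM with TNBS saline and 9.01 ± 3.17 with DSS saline, without a call. Cxcl14, an epithelial and fibroblast chemokine, stayed between 1.83 and 4.07 FPKM in all libraries and was called in no comparison. Pf4, platelet factor 4, which megakaryocytes and some macrophages make, was 9.52, 11.1 and 11.9 FPKM with DSS saline, 8.24, 8.14 and 8.82 with DSS thymopentin, and 1.76 to 4.37 in TNBS. It was higher in DSS saline than in TNBS saline by 1.60 ± 0.21 (limma adjusted p = 0.000256), and the lower values with DSS thymopentin (-0.33 ± 0.21) were not called. None of 6 platelet and megakaryocyte markers reached a mean of 1 FPKM, and they summed to 0.545 to 2.09 per library, below Pf4 alone in every library.

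Of 17 chemokine receptors, 8 passed the filter (Ccr1, Ccr2, Ccr7, Cxcr3, Cxcr4, Cxcr5, Cxcr6 and Cx3cr1). No receptor was called with thymopentin in TNBS, and only Ccr2 was called in DSS. In TNBS 1 of 8 had an unadjusted p under 0.05 by limma, beside 1748 of 13794 tested genes. Averaged over the models all 8 had negative differences, with a median of -0.32 beside 0.07 over all tested genes, and none was called. In that average 4 of the 8 had an unadjusted limma p under 0.05, beside 3759 of 13794 tested genes. Between the saline groups Ccr2, Cxcr3, Cxcr6 and Cx3cr1 were higher in DSS (by 0.95, 1.56, 1.21 and 0.91). Of 5 atypical receptors, which bind chemokines without signalling migration, Ackr3, Ackr4 and Ccrl2 passed the filter. All 3 were higher in DSS saline than in TNBS saline (by 0.55, 0.93 and 0.59, limma adjusted p = 0.0326, 0.00339 and 0.0248), and none was called with thymopentin. Between the saline groups 15.2% of all tested genes were called higher. The Ackr3 call ended without any 1 saline library (up to 0.0821) and that of Ccrl2 without TNBS saline 3 or DSS saline 3 (up to 0.0802).

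Cytokines of the interferon gamma, TNF and IL-17 families are known inducers of chemokine genes. Of 10 tested genes of interferon gamma signalling, Gbp2, a GTPase, and Nlrc5, an activator of MHC class I genes, fell in TNBS (by 1.11 ± 0.20 and 1.26 ± 0.21, limma adjusted p = 0.0449 and 0.0283). The Gbp2 call held only when the library omitted was TNBS thymopentin 2 (otherwise up to 0.102), and ended at both lower filters and when only the TNBS groups were fitted (0.229). That of Nlrc5 ended without TNBS saline 1, TNBS saline 2, TNBS thymopentin 1, TNBS thymopentin 3 or DSS thymopentin 3 (up to 0.0887), with no filter and when only the TNBS groups were fitted (0.151). In DSS Socs1, a feedback inhibitor, fell by 0.70 ± 0.17 (adjusted p = 0.0222), a call lost without DSS saline 1, DSS thymopentin 1 or DSS thymopentin 2 (up to 0.0655), with no filter and when only the DSS groups were fitted. Between the saline groups Gbp2, Socs1 and Nlrc5 were higher in DSS (by 1.84, 1.40 and 1.16), while the receptor chains Ifngr1 and Ifngr2 and the kinase Jak2 were lower (-0.99, -0.83 and -0.76). Ifng itself was listed at 0 in all 3 TNBS thymopentin libraries and was 0.174 ± 0.0929 FPKM with TNBS saline, 0.812 ± 0.163 with DSS saline and 0.326 ± 0.0985 with DSS thymopentin. Irf1, a transcription factor induced by interferons, was 64.6 ± 7.99 and 37.5 ± 11.03 FPKM in TNBS and 56.0 ± 30.48 and 82.5 ± 4.13 in DSS, without a call. Of 14 genes of NF-kB signalling, 1 was called in TNBS and 3 in DSS, all lower. Of all tested genes 0.667% were called in TNBS and 17.0% in DSS, with 0.384% and 4.3% called lower. Tnf, the cytokine, fell in both, by 1.13 ± 0.21 in TNBS (limma adjusted p = 0.0461) and 1.21 ± 0.21 in DSS (adjusted p = 0.00585). The TNBS call of Tnf ended with the replicate number as a block (adjusted p = 0.0916) and without any 1 library except DSS thymopentin 1 or 2 (up to 0.151). Il1b fell in DSS by 1.38 ± 0.39 (adjusted p = 0.0380) and Tnfrsf1a, a TNF receptor, by 0.38 ± 0.10 (adjusted p = 0.0307), both by limma. The Tnfrsf1a call ended without DSS saline 1, DSS saline 3 or any 1 DSS thymopentin library (up to 0.0937), with no filter and when only the DSS groups were fitted. The Il1b call held only when the library omitted was TNBS saline 2, TNBS saline 3, TNBS thymopentin 3 or DSS saline 2 (otherwise up to 0.115). Of 4 tested genes in the list named IL-17 signalling only Il22 was called in DSS, a cytokine outside the IL-17 family that acts on epithelium. Il22 fell by 2.40 ± 0.54 (limma adjusted p = 0.0164), from 6.56 ± 6.13 to 0.0787 ± 0.136 FPKM, a call lost when only the DSS groups were fitted (0.0588). Between the saline groups Il22 and the receptor chain Il17rc were higher in DSS (by 2.295 and 0.51), as were Tnfrsf1a and the adaptor Myd88 of the NF-kB list (by 0.415 and 0.31), while its Rel and Nfkbiz were lower (-0.42 and -0.58). Of these, Myd88 lost its call without TNBS saline 1 or DSS saline 1 (up to 0.0584), and Rel under both rescalings and without any 1 library except TNBS saline 3, TNBS thymopentin 3, DSS saline 2, DSS thymopentin 1 or DSS thymopentin 2 (up to 0.157). Il17a was 0.325 ± 0.156 FPKM with DSS saline and 0.0379 ± 0.0656 with DSS thymopentin, under the filter.

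The authors' deposited tables list genes at a p-value up to 0.05 whose fold change is 2 or more in either direction. For TNBS the authors' deposited table holds 12 ligands, 9 lower and 3 higher (Ccl11, Ccl12 and Ccl17), where 42.3% of its 1173 genes are lower; 4 of the ligands have a deposited FDR under 0.05 (Ccl3, Ccl9, Cxcl9 and Cxcl10). For DSS the authors' deposited table holds 13 ligands, all lower, where 62.5% of its 2326 genes are lower, and 10 have an FDR under 0.05. The share of all listed genes under that FDR was not counted, so the 4 and the 10 are a description only. Both lists contain Ccl2, Ccl3, Ccl17 and Cxcl2, of which Ccl17 is higher in one and lower in the other. The 5 ligands called lower in DSS on FPKM are among those 10, the others being Ccl8, Ccl17, Ccl21a, Cxcl2 and Cxcl13.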

How the data were processed

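Colon RNA from 12 mice was sequenced from strand-specific libraries made of TRIzol-extracted RNA, per the labels' protocols. Per the submitters' processing notes the tools were Cuffnorm, STAR 2.5, DESeq 1.22.1 and FastQC and the build was mm9; the notes give no roles, and the sources used here do not give the gene models. Values for 55335 genes were deposited by the authors as FPKM. The authors' deposited tables of selected genes hold a p-value, an FDR and a log2 fold change per gene, as their headers say. Their per-library log2 values carry no description: raised back from log2, all 7326 values of up to 30 reads were whole within 0.01 reads, with size factors of 0.847 to 1.12. The sources used here do not give each library's total depth.

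limma 3.58.1 (R 4.3.3) fitted 4 group means to log2(FPKM + 1) with 8 residual degrees of freedom and an empirical Bayes trend, two-sided. Because only selected genes have reads, no count test was run. In data simulated for the TNBS comparison over 13794 genes, 48% of 50 genes changed 1.5-fold in FPKM + 1, 84% of 50 changed 2-fold and 96% of 50 changed 4-fold were recovered. At low FPKM such a change is a larger fold of FPKM itself. The simulated noise was normal and independent between genes and libraries. It held no deviations shared between libraries, so these shares may not hold for the real libraries. With 3 against 3 libraries an exact permutation test cannot go below p = 0.1 and was not used. The labels do not say that libraries of a group came from separate experiments, so p-values measure the spread between these libraries.

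Alternatives were a pseudocount of 0.1, a mean of at least 0.1 FPKM, no filter, quantile normalization, median-ratio rescaling, array weights, a replicate block, only the groups compared, and each library left out in turn. Saline and thymopentin groups share replicate numbers in the titles. In TNBS same-numbered libraries deviated together (correlations of 0.124, 0.268 and 0.476), which met the criterion for pairing; the fit reported holds no term for pairs, and the block is given as an alternative. TNBS saline 2 correlated more with thymopentin 1 (0.287). In DSS they did not (-0.136, 0.043 and -0.140). All 34 ligands are accounted for, those with a call or a mean of at least 1 FPKM with their values. Of the 16 other gene lists, called receptor and pathway genes and the receptors of called ligands are named, and of the cell marker lists a selection. Some receptor, interferon signalling and B cell genes of these lists are not reported here and were left out of the counts and sums. The members and lists were chosen with earlier results of these data known. Python 3.11.15 with pandas 2.3.3, numpy 2.4.6 and matplotlib 3.10.9 read the tables, searched RefSeq promoter windows and drew the plots.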

Additional observations from a re-analysis of the deposited data

Results flagged for a closer look

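For 3 ligands a difference of the thymopentin responses between the models was flagged. In the main fit 2 of the 27 tested ligands were called, where 5.15% of all tested genes were. The DSS response minus the TNBS response was -1.32 for Ccl11 and -1.37 for Ccl22, both called by the limma interaction test on log2(FPKM + 1) (adjusted p = 0.0447 and 0.0431). Ccl22 passed the main filter only through DSS saline, where its mean was 2.67 FPKM. For Ccl17, all 3 thymopentin libraries lay above the saline libraries in TNBS and below them in DSS, and the difference was -1.23 in the fit at a mean of at least 0.1 FPKM (adjusted p = 0.0112, limma). In that fit 3.29% of genes were called, and the TNBS values of Ccl17 rested on 3, 0 and 0 reads against 11, 9 and 4. Over the alternatives the adjusted p ranged from 0.0185 to 0.1004 for Ccl11 and from 0.00299 to 0.104 for Ccl22. Of the 12 libraries left out in turn, 10 ended the Ccl11 call and 9 the Ccl22 call, and a pseudocount of 0.1 ended both.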

How the results depend on the processing

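Of 35 ligand calls over the 5 comparisons, 18 held under every alternative run for them: 15 of the 19 between DSS saline and TNBS saline, Ccl22 and Ccl7 in DSS, and Cxcl9 averaged over the models. No called ligand changed direction. Of the 35 calls, 15 were lost with no filter, 8 at a mean of at least 0.1 FPKM and 7 at a pseudocount of 0.1. Fitting only the groups compared kept 19 calls and lost 7. With no filter the called ligands numbered 0 in TNBS (44 of all genes), 3 in DSS (1681), 3 in the average (677) and 1 for the difference of responses (355). A mean of at least 0.1 FPKM gave 4 in the average (975 of all genes). A pseudocount of 0.1 gave 0 for the difference and quantile normalization gave 1 (548 of all genes). Fitting only the groups compared gave 0 in TNBS, and gave no value for the average and the difference, which need all groups. Array weights gave 12 in TNBS, 15 in the average and 9 for the difference, in a fit whose weights did not converge for all genes. Calls over all genes rose as well with array weights, from 92 to 2547, from 1194 to 4031 and from 710 to 2889. A count of 0 for the difference at the smaller pseudocount stood beside 711 calls over all genes. The cause of these changes was not tested, and more genes were tested without a filter.

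Leaving out each library in turn gave 0 to 2 called ligands in TNBS, 2 to 7 in DSS, 2 to 9 in the average, 0 to 3 for the difference and 15 to 20 between the models. Over all genes the calls were 41 to 116, 923 to 2505, 401 to 1435, 176 to 764 and 5347 to 6434, in the same order. With the replicate block, 1 ligand was called in TNBS, 7 in DSS, 9 in the average, 3 for the difference and 21 between the models. Beside these the block gave 79, 1944, 670, 589 and 6347 calls over all genes. In DSS, where libraries share only a number, the block ended the calls of Cxcl1 and Ccl28 (adjusted p = 0.0561 and 0.0522, limma) and added Ccl8, Ccl19 and Cxcl13. Of list genes called in DSS it ended Socs1, Tnfrsf1a, Il1b, Epcam, Cdh1 and Mrc1 (0.0599, 0.0653, 0.0673, 0.0749, 0.0750 and 0.0830). In the average it ended those of Ccl7, Ccl9 and Xcl1 (0.0929, 0.0594 and 0.0787). Ligands under about 20 reads per library, such as Ccl3 and Ccl17 in TNBS, are limited by depth.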
